A study of Homo sapiens with 6 samples.

Results

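The nuclear genes of respiratory complex III, complex IV and ATP synthase were followed from nascent transcription to steady-state RNA in K562, a human chronic myelogenous leukemia cell line. Members were the protein-coding nuclear genes whose symbol starts with UQCR, with COX plus a digit, or with ATP5, together with CYC1. The rule gave 56 genes, and 52 of them had a counted transcript in the annotation used, in 53 transcription units (TUs) out of 37339 matched in all and 19032 protein-coding ones. COX10 had more than 1 TU, and COX6A2, COX6B1, COX7B and ATP5MGL were not analysed here. The cells were untreated and of a single kind, so there is no treatment or genotype to compare, and the comparison is between the assays: 4 libraries of total RNA-seq and 2 of PRO-seq. PRO-seq reads RNA that polymerases are still making, and total RNA-seq of rRNA-depleted RNA reads what the cell holds at steady state. Each TU's relative half-life is its RNA-seq level over its PRO-seq level, which has no unit and is given here on the log2 scale relative to the median mRNA. The authors take this ratio as proportional to half-life under the assumption of steady state. They name as a limit that PRO-seq measures engaged polymerases, which depend on elongation rate as well as on transcription rate. No correction for elongation rate was made here.

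Complex III passes electrons from ubiquinol to cytochrome c, and complex IV (cytochrome c oxidase) passes them on to oxygen. Both pump protons across the inner mitochondrial membrane, and ATP synthase lets protons back through its membrane part, Fo, to drive ATP synthesis in its F1 head. The subunits come from nuclear genes and from mitochondrial DNA, and they are needed in fixed proportions. Complex IV also needs dedicated factors that insert copper, make its heme or place its subunits in the membrane, many of them under COX symbols.

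K562 identity was checked on marker genes. In RNA-seq, the erythroid genes GATA1 (155 TPM, a level corrected for length and library size) and HBG1 (1828 TPM) were high, and CD3E, MS4A1 and ALB of other lineages stayed at or under 0.483 TPM, whereas EPCAM, an epithelial marker, was at 120 TPM. Counts on TUs ranged from 5732780 to 9002746 in the RNA-seq libraries and were 6993816 and 7245632 in the PRO-seq libraries. The RNA-seq replicates fell into close pairs, 1 with 3 and 2 with 4: the chi-square of their counts per degree of freedom was 1.10 and 1.12 within these pairs and from 1.77 to 2.24 between them. The methods state that the cells of all libraries shared 1 flask, so the p-values measure the spread between libraries of that culture and not between cultures. Counting the close pairs as 1 sample each left the members' calls at 32 above and 5 below the median mRNA.

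Promoters of the members are shown first, because NRF1 and the ETS-family factor GABP are well known as activators of respiratory chain genes. RefSeq windows on GRCh38.p14, each running from 250 bases before to 50 bases after an annotated start, were matched by symbol for 43 of the 56 genes, in 53 windows. The stretches below hold the match nearest to the start among the bases before it, for the pair of members with the longest and the pair with the shortest relative half-life that held one, in 1 window of each gene and with COX10 placed by its full-length TU. Capitals mark the matched letters, which are CGCANGCG or its other strand CGCNTGCG for the NRF1 core and CCGGAAG or CTTCCGG for ETS.

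NRF1 core, ATP5MJ, chr14:103921530-103921575, minus strand: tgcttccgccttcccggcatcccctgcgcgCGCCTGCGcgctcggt
NRF1 core, ATP5F1C, chr10:7788126-7788176, plus strand: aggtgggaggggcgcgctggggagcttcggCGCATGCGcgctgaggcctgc
NRF1 core, UQCRFS1, chr19:29213152-29213211, minus strand: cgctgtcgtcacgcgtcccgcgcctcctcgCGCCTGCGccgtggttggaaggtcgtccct
NRF1 core, COX18, chr4:73069717-73069763, minus strand: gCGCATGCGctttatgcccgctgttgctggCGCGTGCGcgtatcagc
ETS, UQCRH, chr1:46303622-46303688, plus strand: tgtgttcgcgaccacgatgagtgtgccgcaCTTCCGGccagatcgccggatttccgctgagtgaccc
ETS, ATP5F1A, chr18:46098308-46098374, minus strand: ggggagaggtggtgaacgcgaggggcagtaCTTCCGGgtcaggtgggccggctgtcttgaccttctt
ETS, COX10, chr17:14069455-14069503, plus strand: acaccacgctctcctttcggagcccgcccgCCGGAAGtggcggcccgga
ETS, COX20, chr1:244835160-244835226, plus strand: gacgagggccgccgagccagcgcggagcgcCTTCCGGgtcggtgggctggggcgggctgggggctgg

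The ETS letters thus stood in front of UQCRH and ATP5F1A, which had the longest relative half-lives of the members, and of COX20, which lay below the median mRNA. The NRF1 core stood in front of ATP5MJ and ATP5F1C, well above the median mRNA, and of UQCRFS1 and COX18, below it. Over both strands, the NRF1 core was in 17 of the 53 member windows (32.1%), in 10.0% of all 35116 windows and in 18.5% of the windows of mRNAs past the level thresholds given below. The ETS letters were in 20 member windows (37.7%), in 10.3% of all windows and in 19.6% of those of mRNAs past the thresholds. AAGATGGC, a YY1 motif, was in 6 member windows (11.3%) against 2.89% and 5.80%. GGGCGG, an SP1 motif, was in 32 (60.4%) against 45.0% and 68.9%. The CCAAT box was in 23 (43.4%) against 34.6% and 35.7%, and TATAAA was in 5 (9.43%) against 11.5% and 5.48%. A first transcribed C followed by 4 pyrimidines, the start seen in many mRNAs of the translation machinery, was annotated in 8 windows (15.1%), those of UQCRH, COX4I1, COX7A2L, COX7C, ATP5F1E, ATP5MC2, ATP5MG and ATP5PO, against 4.07% of all windows and 5.60% of those past the thresholds. The member windows include those of genes with no TU past the thresholds, such as COX15 and COX8C. The shares over mRNAs past the thresholds leave such genes out, so the sets are filtered differently. All these shares are descriptions of letters in a window and were not tested. Several genes have more than 1 window, so windows are not independent. Among TUs with a half-life and a window, those with the NRF1 core had a median of 2.50 (log2, 11 TUs) and those without it 2.89 (18 TUs), and those with the ETS letters had 2.99 (13 TUs) and those without 2.69 (16 TUs). TUs were matched to windows by symbol, so those with the ETS letters include the shorter COX10 TU, at -3.79. That TU starts 1810 bases past the end of the full-length COX10 TU and does not begin at this window.

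A half-life was computed where the summed PRO-seq level exceeded 10 TPM and that of RNA-seq exceeded 1 TPM. This held for 38 member TUs of 37 genes, and 15 member TUs were under a threshold. The members passing had a median of 363 TPM in RNA-seq, against 31.2 TPM over the 8733 mRNAs past the same thresholds, and 111 TPM in PRO-seq, against 47.5 TPM. All 53 member TUs together made up from 2.55% to 2.59% of all TPM in each RNA-seq library, and in PRO-seq 0.524% and 0.54%. In RNA-seq 26 of the 38 lay above the 90th percentile of mRNAs, in PRO-seq 13, and in relative half-life 22.

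Each TU was tested against the median mRNA with edgeR's quasi-likelihood test (adjusted p under 0.05 by Benjamini-Hochberg over 9929 TUs). Of the 38 member TUs, 32 lay above the median mRNA, 5 lay below it and 1 was not called. Over all 9929 TUs tested, 40.4% were called above and 50.0% below, and over mRNAs alone 45.4% and 44.9%. The members' median was 2.48 on the log2 scale, a 5.56-fold longer relative half-life than the median mRNA, and over all TUs tested it was -0.23. With a difference of at least 2-fold asked of the test, 28 members were called above and 3 below, against 21.5% and 29.2% of all TUs. All 38 members kept to 1 side of the median mRNA in each of the 8 pairings of an RNA-seq with a PRO-seq library.

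The calls are given by role. Of the 31 tested TUs of subunits, their relatives and the ATP synthase inhibitor, 29 lay above the median mRNA (93.5%) and 1 below (3.23%). Of the 7 TUs of complex IV assembly genes, which are 6 genes, 3 lay above (42.9%) and 4 below (57.1%), shares near those over all TUs (40.4% and 50.0%). Medians were 2.42 for complex III subunits (9 TUs), 3.13 for complex IV subunits (6), 3.12 for F1 (5), 3.04 for Fo with its stalk and accessory proteins (10) and -0.57 for complex IV assembly genes (7). The assembly median turned to 0.35 (5 TUs, 3 above and 2 below) without COX19 and the shorter COX10 TU, whose limits are given below. Both TUs left out lay below the median mRNA. COX17, the highest, was kept, although its counted transcript is also annotated as a nonsense-mediated decay target. COX17 shares 45.2% of its exonic bases with another TU on the same strand. COX11 was kept too, with a transcript of the same annotation. The sign of this median thus depends on which TUs are left out. The difference between the role groups was not tested.

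Complex III gave both ends of the subunit range. UQCRH, the acidic hinge protein that helps cytochrome c dock, had the longest relative half-life of all members. Its RNA-seq levels were 4743, 4962, 4785 and 4896 TPM in replicates 1 to 4, and its PRO-seq levels were 350 and 344 TPM. UQCRH was 21.7-fold above the median mRNA (log2 4.44 ± 0.04 SE, edgeR adjusted p = 7.9e-37), higher than 99.5% of mRNAs. UQCRFS1, the Rieske iron-sulfur protein that takes electrons from ubiquinol, was at 112, 101, 106 and 100 TPM in RNA-seq and at 228 and 255 TPM in PRO-seq. UQCRFS1 thus had a PRO-seq level near that of UQCRQ (205 and 242 TPM) but a lower RNA-seq level than UQCRQ (475, 492, 477 and 459 TPM). It lay below the median mRNA by the test, at log2 -0.56 ± 0.07 (edgeR adjusted p = 7e-09). With all TUs of at least 1 count in each assay included, the centre shifted, so that UQCRFS1 stood at 0.097 with adjusted p = 0.18 and UQCRB, for example, moved from 0.12 to 0.78.

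UQCRB, a small subunit at the ubiquinone site, was the member that was not called, at log2 0.12 ± 0.06 (edgeR adjusted p = 0.061). The counted UQCRB transcript has 8459 exonic bases for a coding sequence of 333 bases, and the RNA-seq level is divided by this exon length. The core proteins UQCRC1 and UQCRC2 were at 2.42 and 2.87, the heme protein CYC1 at 2.45 and UQCRQ at 1.73, all above the median mRNA, and UQCR10 lay above UQCRC2. The CYC1 value comes from a transcript annotated as a retained intron. UQCRHL is a near-copy of UQCRH in 1 exon, and reads of the pair may be split uncertainly. It held 797, 709, 527 and 572 RNA-seq counts but 9 and 12 PRO-seq counts, and its level was 55.2-fold under that of UQCRH in RNA-seq TPM and 10.2-fold under it in PRO-seq TPM.

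All 6 complex IV subunits past the thresholds lay above the median mRNA, and all by the 2-fold test. COX5B, which binds zinc, had the longest relative half-life among them. It was at 1489, 1436, 1513 and 1413 TPM in RNA-seq and at 190 and 181 TPM in PRO-seq, which is log2 3.62 ± 0.09 (edgeR adjusted p = 1.6e-26). COX5A, which joins COX4 on the matrix side, had the shortest. Its RNA-seq levels were 271, 275, 281 and 294 TPM and its PRO-seq levels 130 and 143 TPM, giving log2 1.67 ± 0.06 (adjusted p = 1.4e-22). PRO-seq levels of these 2 subunits thus differed less than their RNA-seq levels did. COX6C, COX4I1, COX7C and COX7A2 lay between them, from 2.94 to 3.54. The counted transcript of COX6C is annotated as a nonsense-mediated decay target and that of COX4I1 as a retained intron.

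Several complex IV isoforms known from other tissues had few or no counts. COX4I2, the lung and hypoxia isoform, had 0 RNA-seq counts in every library, while COX4I1 was at 584, 609, 575 and 601 TPM. The counted COX4I1 transcript is annotated as a retained intron without a coding sequence, so its level need not be that of the main COX4I1 mRNA. COX7A2 was at 719, 767, 749 and 755 TPM, while the counted transcript of COX7A1, the heart and muscle isoform, had 0 RNA-seq counts. That transcript is annotated as a retained intron without a coding sequence, so its count says nothing of the main COX7A1 mRNA. COX6B2, a testis isoform, had 3 RNA-seq counts in all, and COX8C had 0 in both assays. The PRO-seq window of COX8C is 175 bases long and 100% covered by UNC79 on the same strand. Its PRO-seq count therefore does not show that it was not transcribed. COX7B2 was low but measured, at 6.94, 10.5, 8.26 and 6.60 TPM in RNA-seq and 2.34 and 2.63 TPM in PRO-seq, under the PRO-seq threshold. COX7A2L, which helps to join complexes III and IV, had 0 RNA-seq counts and 53 PRO-seq counts. Its counted transcript has no defined coding sequence, so the limit given for COX7A1 holds here too.

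The 7 assembly TUs past the thresholds had a median of 16.0 TPM in RNA-seq, where the 6 complex IV subunits had 797 TPM, and of 42.0 TPM in PRO-seq, where the subunits had 144 TPM. COX14, at 142 TPM in RNA-seq, is not among the 7, and the difference in level was not tested. COX17, the copper chaperone, had the longest relative half-life of the 7, at 69.7, 81.2, 64.9 and 68.9 TPM in RNA-seq and 34.0 and 34.4 TPM in PRO-seq (log2 1.71 ± 0.11, edgeR adjusted p = 1.7e-15), with 45.8% of its PRO-seq window shared with POPDC2. COX11, which hands copper to COX1, was at 0.61 ± 0.08, and COX10, which makes the heme A precursor, at 0.35 ± 0.08 in its full-length TU. Neither was called above by the 2-fold test.

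Below the median mRNA lay COX18, COX19, COX20 and the shorter COX10 TU, while COX14, COX15 and COX16 have no half-life here. COX18, which moves part of COX2 across the inner membrane, was at 9.69, 9.43, 10.6 and 9.80 TPM in RNA-seq and at 63.0 and 57.9 TPM in PRO-seq. This was log2 -1.98 ± 0.09, or 0.253 times the median mRNA (edgeR adjusted p = 7.1e-19). Its PRO-seq level sat at the 61.6th percentile of mRNAs and its RNA-seq level at the 20.1st. COX20, which escorts newly made COX2, was at 80.5, 89.8, 84.9 and 90.1 TPM in RNA-seq and at 212 and 187 TPM in PRO-seq, at log2 -0.57 ± 0.07 (adjusted p = 1.1e-08). Like UQCRFS1, it stood near the centre when low TUs were included, at 0.088 with adjusted p = 0.26.

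COX19 and the shorter COX10 TU carry particular limits. COX19, a partner of COX11 in copper delivery, was at 8.15, 5.66, 9.17 and 6.81 TPM in RNA-seq and at 33.4 and 39.1 TPM in PRO-seq (log2 -1.67 ± 0.13, edgeR adjusted p = 1.5e-13). Its counted transcript is annotated as a nonsense-mediated decay target, and 73.4% of its PRO-seq window and 83.5% of its exonic bases are shared with other TUs on the same strand, ADAP1 among them. The shorter COX10 TU has no defined coding sequence and starts 1810 bases past the end of the full-length COX10 TU on the same strand (GRCh37, chr17:14113805-14121239). It held 5, 13, 13 and 9 RNA-seq counts and 60 and 81 PRO-seq counts, and its log2 value of -3.79 ± 0.26 (adjusted p = 1.7e-14) ranged from -5.18 to -2.86 over the pairings of libraries. What part the overlap or the upstream gene has in these values was not tested. Without TUs of over 10% same-strand overlap, 30 members of 35 lay above and 4 below, and COX19 was no longer among them.

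All 16 ATP synthase TUs past the thresholds lay above the median mRNA, and 14 of them by the 2-fold test. In F1, the catalytic head, ATP5F1A (alpha) was highest at 1140, 1146, 1143 and 1154 TPM in RNA-seq and 108 and 112 TPM in PRO-seq, or log2 4.02 ± 0.04 (edgeR adjusted p = 2.6e-35). ATP5F1B (beta) had the higher RNA level, from 2321 to 2408 TPM, and the higher PRO-seq level, 430 and 415 TPM, and a shorter relative half-life of 3.12. ATP5F1E (epsilon), in the central stalk, was lowest. It was at 229, 231, 222 and 221 TPM in RNA-seq and at 260 and 241 TPM in PRO-seq (log2 0.49 ± 0.06, adjusted p = 4.5e-09), close to ATP5F1D (delta) at 0.63 ± 0.15. Over the 5 F1 genes, PRO-seq levels spanned 4.94-fold and RNA-seq levels 26.5-fold. Alpha and beta are present in more copies per enzyme than the other F1 subunits.

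In Fo with its stalk and accessory proteins, all 10 TUs lay above by the 2-fold test. ATP5MJ, a small accessory protein, was highest, at 548, 531, 529 and 542 TPM in RNA-seq and 55.5 and 50.9 TPM in PRO-seq (log2 3.97 ± 0.07, edgeR adjusted p = 1.3e-30). ATP5MC3 was lowest, at log2 1.33 ± 0.05 (adjusted p = 3.1e-22). ATP5PD, ATP5ME, ATP5PB, ATP5MK and the ATP5MF-PTCD1 readthrough TU lay from 2.91 to 3.84, and ATP5PF at 1.39. The readthrough TU shares 70.0% of its PRO-seq window and 22.2% of its exonic bases with other TUs on the same strand. ATP5MF itself has no half-life here, as its counted transcript, without a defined coding sequence, held 1 RNA-seq count. ATP5IF1, which blocks the reverse reaction of the enzyme, was at 291, 312, 293 and 276 TPM in RNA-seq and 95.5 and 77.7 TPM in PRO-seq, at log2 2.40 ± 0.08 (adjusted p = 2.6e-22).

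ATP5MC1, ATP5MC2 and ATP5MC3 encode the same mature c subunit of the rotor ring with different import sequences. Nascent levels were far apart, at 55.1 and 57.6 TPM for ATP5MC1, 95.8 and 109 TPM for ATP5MC2, and 497 and 463 TPM for ATP5MC3, with no overlap between the genes. Steady-state levels were closer together. ATP5MC1 was at 326, 308, 293 and 305 TPM, ATP5MC2 at 376, 379, 376 and 358 TPM and ATP5MC3 at 770, 780, 760 and 780 TPM. The genes thus spanned 8.51-fold in PRO-seq and 2.50-fold in RNA-seq, in the same order. The relative half-lives were 3.09, 2.50 and 1.33. Their reverse order follows from these levels, because each half-life is the ratio of the RNA-seq to the PRO-seq level. The counted transcripts have 598, 406 and 2587 exonic bases, and 8, 5 and 0 pseudogenes are named after the genes. What part these have in the RNA-seq levels was not tested. The ATP5MC2 transcript counted has no defined coding sequence.

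Members differed more from each other in RNA-seq than in PRO-seq. The SD of log2 TPM across the 38 TUs was 2.37 in RNA-seq and 1.14 in PRO-seq, and over all mRNAs past the thresholds it was 2.05 and 1.24. Without the complex IV assembly genes it was 1.41 and 1.03 (31 TUs). The RNA-seq spread was thus wider than that of mRNAs only with the assembly genes included. For Fo and its accessory proteins the order was the other way, with 1.04 in RNA-seq and 1.29 in PRO-seq. Across members, RNA-seq and PRO-seq levels had a Spearman rho of 0.607 (n = 38 TUs, which share libraries), against 0.551 over mRNAs. Without the assembly genes the rho was 0.477 (n = 31 TUs). Spread over libraries was small beside these, with a median SD of log2 TPM of 0.052 between the 4 libraries of RNA-seq and of 0.074 between the 2 of PRO-seq.

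Members were short in both exons and span. The 38 TUs had a median of 1479 exonic bases, a span of 10705 bp and 5 exons, against 3064 bases, 29515 bp and 9 exons over mRNAs. Relative half-life fell with exon length across members (Spearman rho -0.476, n = 38) and across mRNAs (rho -0.331), a description in which exon length also enters the RNA-seq TPM. Among members low in their groups, some had long counted transcripts, with 3610 exonic bases for ATP5F1E, 2587 for ATP5MC3, 6846 for COX18 and 3086 for UQCRFS1. Others had short ones, with 1173 for COX5A, 704 for ATP5F1D, 492 for ATP5PF and 1420 for COX19. The counted transcript is not always the main mRNA. Among the 38, 28 were annotated as protein coding, 4 as without a defined coding sequence, 4 as nonsense-mediated decay targets and 2 as retained introns. What part the choice of transcript has in these values was not tested.

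Processed pseudogenes are common in this family. The annotation held 121 pseudogenes named after 30 of the members, 17 of them after COX6C alone, and 10 were counted, with 50 RNA-seq counts in all against 389778 on the members. Records set aside as not unique came to between 24.5% and 28.0% in RNA-seq, and to 2.73% and 2.79% in PRO-seq. Values of members with pseudogenes are therefore uncertain where reads could not be placed. The median log2 half-life was 2.94 for the 24 tested TUs with a pseudogene of their name and 1.87 for the 14 without. This split is mixed with role. The 14 include COX18, COX19 and both COX10 TUs, and the 24 include COX11, COX17 and COX20. UQCRHL, the near-copy of UQCRH, also counts among the 14. What part pseudogenes have in the difference was not tested.

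Of the 15 member TUs under a threshold, 6 were under both, with at most 3 RNA-seq counts each, and 9 were under the PRO-seq threshold alone. In 8 of these 9 (UQCR11, COX6A1, COX8A, COX14, COX15, COX16, ATP5MG and ATP5PO), over 90% of the PRO-seq window was also part of another counted TU on the same strand. Their RNA was often abundant. COX8A was at 740, 696, 750 and 710 TPM in RNA-seq with 0 counts in both PRO-seq libraries, ATP5MG at 411, 378, 409 and 391 TPM with 0, and ATP5PO at 389, 412, 409 and 431 TPM with 0. COX6A1 was at 426, 452, 431 and 438 TPM with 5 and 3 PRO-seq counts, and UQCR11 at 177, 198, 197 and 200 TPM with 1 and 0. COX14 (138, 140, 147 and 145 TPM), COX15 (22.1, 20.5, 23.9 and 18.2 TPM) and COX16 (9.71, 5.99, 8.03 and 8.20 TPM) held 2, 0 and 14 PRO-seq counts in all. No relative half-life can be given for these genes, and their low PRO-seq counts do not show that they were not transcribed.

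Same-strand cover of over 90% was found in 10 of the 53 member TUs (18.9%) and in 6.46% of mRNA TUs. PRO-seq counts were 0 in 6 of these 10 and in 70.0% of such mRNAs, against 0 of 39 members and 8.11% of mRNAs with at most 10% cover. Members covered on the other strand alone, ATP5MC1 and ATP5PD, held 62 and 427 PRO-seq counts. Counting programs usually set aside a read that falls in more than 1 TU. The sources used here do not give the counting mode or the strand setting, and their part was not tested.

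Other genes of the pathway were placed on the same scale, where 40.4% of all TUs tested lay above and 50.0% below. Complex III assembly genes had 4 of 6 TUs (66.7%) above the median mRNA by edgeR and the other two not called, from UQCC1 at 0.04 ± 0.06 to BCS1L, which inserts the Rieske protein, at 1.85 ± 0.17. A further complex IV list had 7 of 13 above (53.8%) and 6 below (46.2%), from CMC1 at -1.28 to NDUFA4 at 2.13. NDUFA4 is itself now known as a complex IV subunit, and by its symbol it also counts among the NDUF genes below. ATP synthase assembly genes had 1 of 5 above (TMEM70, 1.90) and 4 below, the lowest being ATPAF2 at -0.99. Cytochrome c itself (CYCS) was at 0.88 ± 0.05 and its heme lyase HCCS at 0.80 ± 0.09. Known regulators of mitochondrial genes had 6 of 11 above (54.5%) and 3 below (27.3%), from PPRC1 at -2.57 to TFAM, which packages mitochondrial DNA, at 1.77, and the factor NRF1 was at -1.16 ± 0.08.

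Complex I genes, those with NDUF symbols, had 37 of 39 TUs above (94.9%) and 2 below (5.13%), with a median of 1.83, and both measured complex II genes lay above, SDHB at 3.40 and SDHC at 0.40. The mitochondrially encoded MT-CYB and MT-CO1 were at -4.24 and -4.12, with PRO-seq levels of 8801 and 15930 TPM. Both are transcribed by the mitochondrial polymerase from a shared precursor and have short spans, so that their PRO-seq length is small after the removal of 1000 bp, and their values are not comparable with those of nuclear genes. MT-CO2, MT-CO3, MT-ATP6 and MT-ATP8 were not analysed here.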

How the data were processed

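The authors trimmed reads with Cutadapt, aligned them with HISAT2 to GRCh38 and deposited raw HTSeq counts per transcript, not normalized. The sources used here give neither tool versions nor the strand setting. Of 42371 transcripts, 37339 (88.1%) were matched by identifier to GENCODE on GRCh37, which gave symbols, lengths and coordinates, so lengths can differ from those counted on. TPM used exon length for RNA-seq and span minus 1000 bp for PRO-seq. Rows that name no TU (between 66.5% and 88.6% of records) were left out.

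The counts were fitted with edgeR 4.0.16 (R 4.3.3; quasi-likelihood, TMM, length offsets, centred on the median mRNA, Benjamini-Hochberg over all 9929 TUs); DESeq2 1.42.0 was an alternative. SE is the log2 value over the root of F. In a simulation of this comparison with 9920 TUs, 199 of which were shifted by 1 (log2), edgeR found 97.0% of these and made 11 false calls. All other TUs had RNA-seq in proportion to PRO-seq, with 1 dispersion for all and no TPM thresholds. In the data 40.4% of TUs were called above and 50.0% below. The simulation therefore does not give the error rate of the calls reported here. Python 3.11.15 was used otherwise.

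Members, lists and tests were chosen with earlier results of these data known. Values in every library are given for the highest and lowest member of each role, members below the median mRNA, isoform sets and members failing 1 threshold. Same-numbered libraries were not paired: their deviations correlated at -0.0113 over 9841 TUs.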

Additional observations from a re-analysis of the deposited data

Results flagged for a closer look

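For 2 of the 38 member TUs, 1 of the 4 RNA-seq libraries stood apart by Dixon's test at the 95% level, which flags about 1 group in 20 by chance. Full-length COX10 was lowest in replicate 4, at 13.5 TPM, with the others from 16.5 to 17.0 TPM. ATP5MC2 was also lowest in replicate 4, at 358 TPM, with the others from 376 to 379 TPM.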

How the results depend on the processing

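Of the members, 32 lay above the median mRNA and 5 below, with a median of 2.48, and DESeq2 and the replicate block also gave 32 and 5. The count below was 3 with all TUs of at least 1 count in each assay, 3 when a 2-fold difference was tested, and 3 on protein-coding transcripts alone, a setting chosen after seeing the data, like that on overlap. The median was 3.32 at 1 count, where UQCRFS1 and COX20 reversed to 0.097 and 0.088, 2.65 at 20 and 2 TPM, 2.65 with 500 bp removed, 2.71 centred on all TUs, 2.63 on protein-coding transcripts and 1.87 without members that have a named pseudogene. The set without named pseudogenes holds COX18, COX19 and both COX10 TUs. The median of complex IV assembly TUs turned from -0.57 to 0.35 without COX19 and the shorter COX10 TU, also chosen after seeing the data. Both of these lay below the median mRNA, and COX17, which has limits like those of COX19, was kept. The cause was not tested. Leaving out 1 library gave 32 to 33 above, 5 below in each case, and medians from 2.46 to 2.68. UQCRB became called above in 3 settings. PRO-seq depth limits UQCRHL, with 21 counts in all.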
